A study of Mus musculus with 2 samples.

Results

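Tcf1 binding was measured by ChIP-seq in naïve CD8+ T cells, and of the 21764 deposited peaks on chromosomes 1 to 19, 270 (1.24%) lay at the start site of a noncoding RNA gene. A peak was taken as such when its summit, the position of highest signal, was within 1 kb of a start of a lincRNA, antisense, processed_transcript or miRNA gene in the GENCODE vM1 annotation of the mm9 genome and more than 1 kb from every protein-coding start. The rule used position alone and no signal value. Of 818 summits within 1 kb of a noncoding start, 548 were dropped because a protein-coding start also lay within 1 kb, as happens at divergent promoters. The 270 peaks belonged to 245 genes, when each peak was assigned to its nearest noncoding start, and 14 of them had a second noncoding gene within 1 kb. By gene type, 137 were at processed_transcript genes, 108 at lincRNA genes (long RNAs between coding genes) and 25 at miRNA genes. The annotation held 0 genes of type antisense, and antisense RNAs were listed as transcripts of the other types, which put 60 of the 270 peaks at an antisense transcript.

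The cells were sort-purified from the spleen as GFP+ TCRbeta+ CD62Lhi CD44lo-med CD8+ cells, and chromatin was precipitated with a rabbit antiserum raised against full-length Tcf1. There was 1 WT library, with 36938606 fragments after removal of duplicates, and 1 Tcf1-deficient library precipitated alike, with 27625250 fragments. The Tcf1-deficient library was the control against which the peaks were called, and their comparison served to find the sites of Tcf1 binding. The series text describes hCD2-Cre mice with a Rosa26-lsl-GFP reporter and wild-type or floxed Tcf1 and Lef1 alleles, and the genotype label of the control reads Tcf1-/-Lef1-/-, whereas the study's methods name Cd4-Cre+ Tcf7 fl/fl mice as the source of the control. Tcf7 is the gene that encodes Tcf1, and whether the control cells also lacked Lef1 differs between these sources. Both groups were on the C57BL/6 background, and both Cre drivers act in T cells. With 1 library per group there was no replicate check, peaks are not replicates of a condition, and all intervals below are 95% intervals that cover counting error only. Binding data hold no expression levels, so the labelled cell type could not be checked against its markers.

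Tcf1 is an HMG-box transcription factor that bends DNA at a short sequence centred on ATCAAAG, the Tcf/Lef core, and it maintains the identity and the naïve or memory potential of T cells. Long noncoding RNAs are transcribed by the same polymerase as mRNAs, often from enhancers or from the opposite strand of a coding gene, and many are restricted to a cell type. MicroRNAs are cut from longer primary transcripts and repress mRNAs that pair with their seed. The annotation places the start of a miRNA gene at its hairpin and not at the start of its primary transcript, so a peak at a miRNA start here is a peak at the hairpin.

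The sequences below show the 101 bases centred on the summits of 9 of these peaks, read from mm9 on the plus strand. The first 5 carry the Tcf/Lef core near the summit, in capitals, which reads CTTTGAT where the core lies on the minus strand. They include the peak at Mir150, which had the highest fold enrichment of all miRNA genes, and a peak over the first part of Neat1, where the core was 3 bp from the summit.
Mir150 (chr7:52376945-52377045, plus strand): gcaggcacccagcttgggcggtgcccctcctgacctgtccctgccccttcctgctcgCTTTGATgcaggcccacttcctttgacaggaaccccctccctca
Neat1 (chr19:5845004-5845104, plus strand): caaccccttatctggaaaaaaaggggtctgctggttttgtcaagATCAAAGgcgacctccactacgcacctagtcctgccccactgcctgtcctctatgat
Gm15340 (chr16:96121844-96121944, plus strand): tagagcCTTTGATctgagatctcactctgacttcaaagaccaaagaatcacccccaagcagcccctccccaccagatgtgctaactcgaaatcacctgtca
1810014B01Rik (chr10:86148013-86148113, plus strand): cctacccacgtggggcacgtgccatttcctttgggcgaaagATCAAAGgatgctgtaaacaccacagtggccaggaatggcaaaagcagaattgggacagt
4930555B11Rik (chr2:57034185-57034285, plus strand): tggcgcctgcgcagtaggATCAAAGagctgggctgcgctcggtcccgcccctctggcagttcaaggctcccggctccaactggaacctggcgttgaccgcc

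The next 4 windows lack the Tcf/Lef core. Gm13982 had the highest fold enrichment of the 270 peaks, and it and AI847159 carry the Runx core TGTGGTT in capitals. Gm16350 ranked next to Gm13982 by fold enrichment and held none of the Tcf/Lef, Runx and ETS cores and the GC box CCCGCCC, though its window holds AACAAAG, a related sequence described further on. Gm2885 carries the ETS core CGGAAGT, in capitals as ACTTCCG on the plus strand.
Gm13982 (chr2:117243306-117243406, plus strand): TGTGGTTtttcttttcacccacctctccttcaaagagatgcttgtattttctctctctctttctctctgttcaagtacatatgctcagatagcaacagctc
AI847159 (chr2:129005873-129005973, plus strand): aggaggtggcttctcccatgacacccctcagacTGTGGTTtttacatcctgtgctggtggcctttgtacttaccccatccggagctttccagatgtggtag
Gm16350 (chr8:14961499-14961599, plus strand): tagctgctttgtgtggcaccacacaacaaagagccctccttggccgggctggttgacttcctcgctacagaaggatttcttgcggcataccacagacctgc
Gm2885 (chr17:7032571-7032671, plus strand): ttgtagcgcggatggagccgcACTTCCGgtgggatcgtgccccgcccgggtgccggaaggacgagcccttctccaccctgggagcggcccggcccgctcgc

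Most of the 25 peaks at annotated miRNA genes were at genes without a microRNA entry of RefSeq (GRCm38.p6) by symbol. Of the 245 genes with a peak, 10 had such an entry, among them Mir155, a lincRNA in the annotation. These 10 had 18 mature sequences and 18 distinct seeds, so no seed was shared. Of these 18 sequences, 8 are given with the seed, bases 2 to 8, in capitals, as examples from the genes described in most detail. They show 1 arm for each gene except Mir142. For Mir150 only the 3p arm was among the 18, so the seed of its other arm is not shown.
mmu-miR-150-3p: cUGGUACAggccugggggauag
mmu-miR-142a-5p: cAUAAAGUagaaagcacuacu
mmu-miR-142a-3p: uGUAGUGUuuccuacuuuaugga
mmu-miR-155-5p: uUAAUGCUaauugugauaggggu
mmu-miR-132-3p: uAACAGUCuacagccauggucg
mmu-miR-30a-5p: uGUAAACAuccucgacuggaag
mmu-let-7i-5p: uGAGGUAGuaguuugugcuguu
mmu-miR-1943-5p: aAGGGAGGaucugggcaccugga

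Of the noncoding types, lincRNA genes most often had a Tcf1 peak at a start. Of 4033 noncoding genes with at least 1 start more than 1 kb from every protein-coding start, 242 (6.0%, Wilson interval 5.31 to 6.78) had such a peak within 1 kb. The share was 14.2% (11.8 to 16.9) of 699 lincRNA genes, 5.78% (4.84 to 6.89) of 2006 processed_transcript genes and 2.03% (1.40 to 2.94) of 1328 miRNA genes, and the 3 intervals did not overlap. A gene counted when any of its eligible starts had a peak, and the number of starts per gene was not matched between the types. Of 21418 protein-coding genes, 37.5% (36.8 to 38.1) had a summit within 1 kb of a start, without any limit on other genes nearby and with more annotated starts per gene. By chromosome the number of peaks ran from 2 on chromosome 18 to 43 on chromosome 11, or from 1.92 to 9.5 peaks per 100 eligible start positions, the lowest on chromosome 18 and the highest on chromosome 17.

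**Figure D1:**
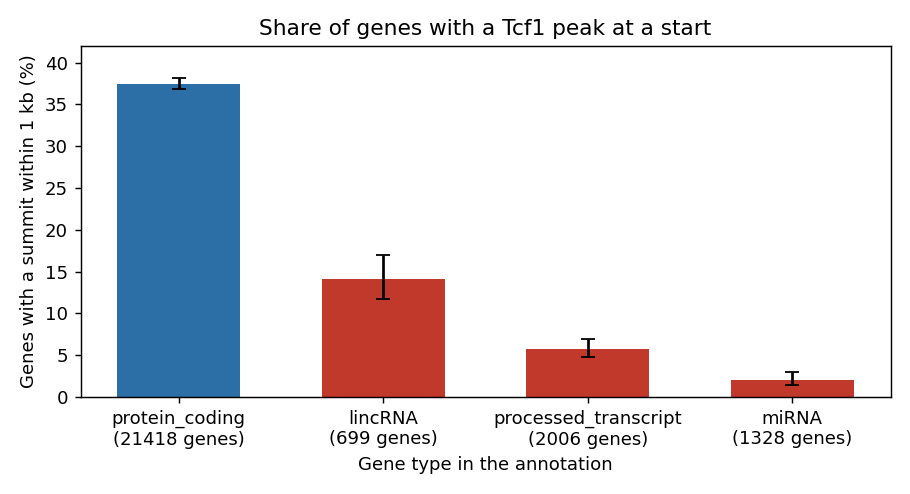
Bars give the percentage of genes of each annotated type with a Tcf1 summit within 1 kb of a start, and error bars are Wilson 95% intervals. LincRNA genes stand at 14.2%, processed_transcript genes at 5.78% and miRNA genes at 2.03%, all under the 37.5% of protein-coding genes.

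The median fold enrichment at noncoding starts was slightly lower than over all Tcf1 peaks. Fold enrichment, the WT pileup of fragments over the summit plus 1 divided by the scaled control level plus 1, ran from 1.64 to 37.4 with a median of 5.61 (interquartile range 4.35 to 9.31, interval of the median from ranks 5.14 to 6.08), beside a median of 6.08 over 8060 peaks at protein-coding starts, 6.39 over 13219 distal peaks and 6.23 over all peaks. The WT pileup had a median of 38 fragments and a range of 18 to 1179, while the control level was at its genome-wide floor of 5.42 fragments in 213 of the 270 peaks (78.9%, 73.6 to 83.3), beside 83.4% of all peaks, with differences of -4.70 points from distal peaks (-10.0 to -0.212) and -4.21 points from protein-coding starts (-9.53 to 0.310). A fold enrichment of at least 4, the minimum that the study set for high confidence, was reached by 223 peaks (82.6%, 77.6 to 86.6), against 86.2% of all peaks on these chromosomes. The difference from peaks at protein-coding starts was -4.17 points (Newcombe interval -9.19 to -0.0422), and that from distal peaks was -3.24 points (-8.24 to 0.863).

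At a fold enrichment of at least 8 there were 87 peaks (32.2%, 26.9 to 38.0), near the 34.3% of all peaks. At least 20 was reached by 12 peaks (4.44%, 2.56 to 7.61), against 6.94% of all peaks, and the difference was -4.63 points from distal peaks (-6.58 to -1.43) and 0.921 points from protein-coding starts (-1.01 to 4.11). Of these 12 peaks, 11 were at processed_transcript genes, 1 at a lincRNA gene and 0 at the 25 miRNA peaks, and 3 counts, the limit taken for a count of 0, would be a share of 12%. The median fold enrichment was 5.92 at processed_transcript genes, 5.38 at lincRNA genes and 5.14 at miRNA genes, with intervals from ranks of 5.14 to 7.32, 4.99 to 6.08 and 4.67 to 6.08, which overlapped.

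**Figure D2:**
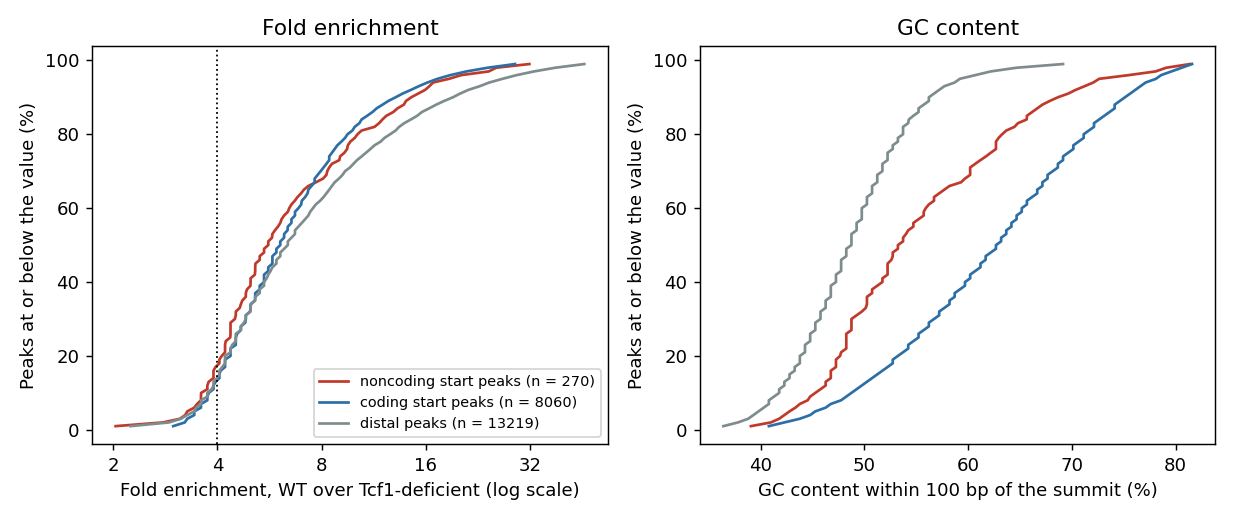
Cumulative percentage of peaks against fold enrichment (left, log scale, dotted line at 4) and against GC content within 100 bp of the summit (right), for percentiles 1 to 99 of each class. The medians of fold enrichment are 5.61, 6.08 and 6.39 for noncoding, protein-coding and distal peaks, and distal peaks reach higher at the top, with a 95th percentile of 26.6 against 18.7 at noncoding starts, while in GC content the noncoding start peaks lie between distal peaks and protein-coding start peaks.

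The 10 peaks with the highest fold enrichment lay mostly at RNAs known only by a clone or model name. Gm13982, a processed_transcript gene whose nearest protein-coding start was that of Rasgrp1, a Ras activator downstream of the T cell receptor, 74.6 kb away, had 239 WT fragments (Poisson interval 210 to 271) over a control level at the floor, a fold enrichment of 37.4. The peak spanned chr2:117242848-117243705, 77 bp downstream of the start and in an exon of the RNA. Gm16350, antisense within an intron of Arhgef10, had 278 WT fragments (246 to 313) against a control level of 6.69, a fold enrichment of 36.3. The control level differed little between these sites, and a WT pileup above it was a condition of the peak call.

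2010013B24Rik had 291 WT fragments against 7.35 (fold enrichment 35.0), and AI847159, 18.6 kb from the phosphate transporter gene Slc20a1, had 213 against 6.02 (30.5). Gm13293, with 157 WT fragments and a fold enrichment of 24.6, was 89.1 kb from the start of Prkcq, which encodes the protein kinase C isoform of T cell receptor signalling. Also antisense to a coding gene were Gm17122 at an exon of the coronin gene Coro1c (24.5) and Gm12233 in an intron of the amino acid transporter gene Slc36a3 (22.4). Gm15340 had 175 WT fragments and a fold enrichment of 27.4, and 1810014B01Rik had 278 against a control level of 10.03, a fold enrichment of 25.3. The remaining peak of the 10, at Oaz2 (25.7), is noncoding only in the annotation used, since RefSeq lists Oaz2, an inhibitor of ornithine decarboxylase, as protein-coding. By symbol, 145 of the 245 genes matched RefSeq, 109 of them as lncRNA, 10 as miRNA, 8 as transcribed pseudogenes and 18 as protein-coding, and the 19 peaks of the last group had a median fold enrichment of 8.26.

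Among the listed noncoding genes, Neat1 and Malat1 had the highest fold enrichment after Mir150. From a list of 17 nuclear and general long noncoding RNAs, 10 were in the annotation and 3 of these had 6 peaks, all with a fold enrichment over 4. Neat1, the RNA scaffold of paraspeckles, had 99 WT fragments (80.5 to 120) over a control level at the floor, a fold enrichment of 15.6, in a peak of 1593 bp at chr19:5844710-5846302. Malat1, a nuclear speckle RNA transcribed close to Neat1, had a peak of 83 fragments (66.1 to 103) 941 bp upstream of its start, with a fold enrichment of 13.1, and another of 57 fragments (43.2 to 73.9) 13 bp downstream of it, with 9.04. Dleu2, which hosts microRNAs that restrain cell division, had 3 peaks of 61, 35 and 37 WT fragments with fold enrichments of 9.66, 5.61 and 4.94. Of 14 host genes of small nucleolar RNAs, 8 were annotated and 2 had a peak, Snhg5 with 61 fragments (9.66) and Snhg12 with 30 (4.83). Of 14 antisense RNAs at loci of developmental regulators, 6 were annotated and 0 had a peak. Over all eligible noncoding genes 6.0% had a peak, and the difference of these lists from that share was not tested.

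Among the listed microRNA genes the peak at Mir150, a microRNA of mature lymphocytes, had the highest pileup and fold enrichment. It had 269 WT fragments (238 to 303) against a control level of 13.4, a fold enrichment of 18.8, and spanned chr7:52376649-52377315, with the summit 132 bp upstream of the hairpin and 10 bp from a Tcf/Lef core. Mir132 followed among the listed genes with 60 fragments (9.504), then Mir17hg, the host transcript of an oncogenic microRNA cluster, with 45 (7.17), Mir142, a microRNA of blood cells, with 36 (5.76), and Mir30a with 30 (4.83). The lowest was Mir155, a microRNA induced on lymphocyte activation and annotated as a lincRNA, with 24 fragments (15.4 to 35.7) and a fold enrichment of 3.90, under the minimum of 4. These were 6 of 40 annotated genes from a list of 48 microRNA genes and hosts, beside 2.03% of all eligible miRNA genes and 6.0% of all eligible noncoding genes. The WT pileups of all of them but Mir150 were between 24 and 60, and the control levels were at the floor for all but Mir150.

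Outside the list, Mir1943 in an intron of Tmem184b had 104 WT fragments and a fold enrichment of 16.4, and Mirlet7i, of the let-7 family that represses growth genes, had 38 (6.08) in the most GC-rich window of the 270, at 87.6% GC. AC102815.1 had 75 fragments (11.8), AC123610.1 43 (6.86) and AC165092.1 68 against a control level of 9.36 (6.66). The highest WT pileups of all were at genes annotated as miRNA, with a high control level and no microRNA entry in RefSeq by symbol. AC113316.1 had 1179 fragments against 173 (fold enrichment 6.78), mmu-mir-689-2 had 1129 against 199 (5.64) and mmu-mir-2134-4 had 461 against 90.3 (5.06).

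**Figure D3:**
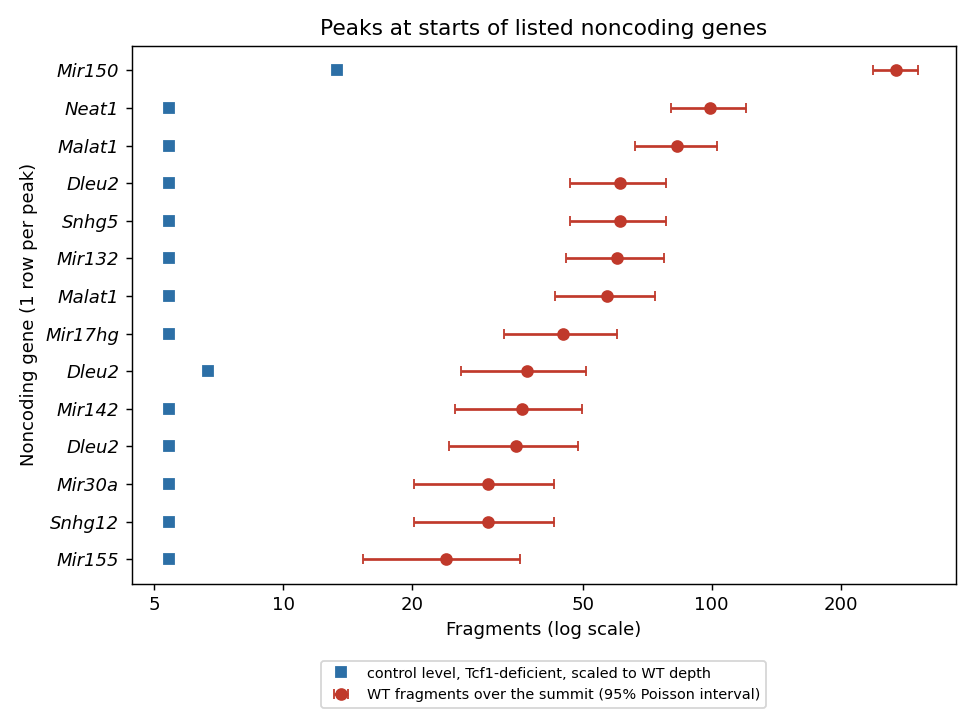
WT fragments over the summit (circles, with 95% Poisson intervals) and the control level from the Tcf1-deficient library (squares, scaled to the WT depth) on a log axis, for the 14 peaks at listed noncoding genes. WT pileups run from 24 fragments at Mir155 to 269 at Mir150. They lie above the control level, which the peak call of WT over this control required of every deposited peak.

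In the whole set, 5 of 270 peaks (1.85%) had a control level over 50 fragments, where the control library carried many reads too, beside 0.625% of all peaks. The difference was 1.49 points from protein-coding starts (0.422 to 3.90) and 1.10 points from distal peaks (0.0246 to 3.51). Beside the 3 miRNA genes these were Gm11399, with 209 WT fragments against 127 and the lowest fold enrichment of all (1.64), and Pisd-ps2, with 144 against 81.6 (1.76). A window of 51 bases at the summit occurred more than once in the genome for 17 peaks, up to 10 times, and their median control level was 11.4 fragments, against 5.42 for the 253 peaks of unique sequence. Of the 5 peaks of high control level, 3 were among those 17 and 2, AC113316.1 and Pisd-ps2, were of unique sequence. Reads cannot be assigned to one copy with certainty at repeated sequences, and the part of this in the results was not tested.

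The rule placed every summit within 1 kb of a noncoding start and dropped those near a protein-coding start, a limit that the protein-coding class did not have, so the distances within 1 kb are given as a description. The median distance was 196 bp (interquartile range 72.3 to 541), against 82 bp at protein-coding starts. Within 250 bp lay 151 summits (55.9%, 49.96 to 61.7), beside 77.1% at protein-coding starts, a difference of -21.2 points (-27.2 to -15.3), while an even spread over the 1 kb on each side would place 25.04% there. Upstream of the start lay 174 summits (64.4%, 58.6 to 69.9), close to the 65.8% at protein-coding starts. Hairpins of miRNA genes had a median distance of 132 bp, with 18 of 25 summits upstream.

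**Figure D4:**
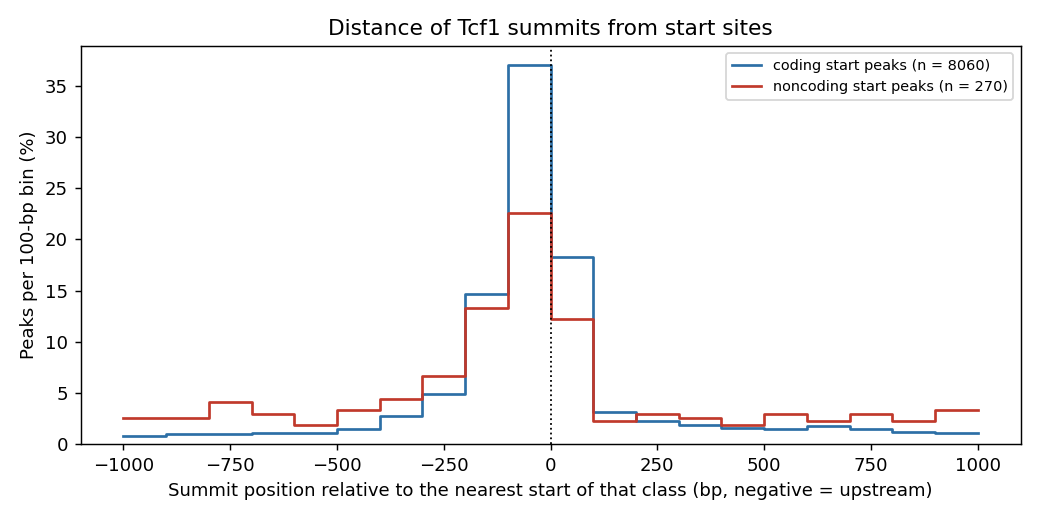
Percentage of summits in each 100-bp bin from 1 kb upstream to 1 kb downstream of the nearest start, for 270 peaks at noncoding starts and 8060 at protein-coding starts. Both classes are highest just upstream of the start, and the noncoding class is lower there and higher in every bin beyond 500 bp on both sides.

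The position relative to coding genes is given as a description, since the rule left out summits within 1 kb of a protein-coding start. The summit was outside protein-coding genes in 189 peaks (70.0%), in a coding intron in 66 (24.4%) and in a coding exon in 15. Of the 66 in an intron, 54 had the noncoding RNA on the strand opposite to the coding gene. The nearest protein-coding start was 10 to 50 kb away for 117 peaks (43.3%), and more than 100 kb away for 20. Another Tcf1 summit lay within 10 kb of 171 peaks (63.3%, 57.4 to 68.9). The share was 53.3% over all peaks, 58.4% at distal peaks and 44.3% at protein-coding starts. The difference was 19.1 points from protein-coding starts (13.1 to 24.7). From distal peaks it was 4.90 points, with an interval that included 0 (-1.05 to 10.5). Peaks at starts of the same gene could count as neighbours of each other. The share with a neighbour was 74.5% at processed_transcript genes, 54.6% at lincRNA genes and 40.0% at miRNA genes.

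Of the genes, 21 had more than 1 peak at their starts. 2310001H17Rik, a lincRNA 37.3 to 42.3 kb from the start of the activation antigen gene Cd69, had the most, with 4 peaks of 102, 52, 48 and 38 WT fragments and fold enrichments of 16.05, 8.26, 7.63 and 6.08. Gm11346, on the strand opposite to Fam65b, which encodes an inhibitor of RhoA in T cells, had 3 peaks with 128, 127 and 44 fragments (20.1, 19.9 and 7.01). The starts of 1 gene share a locus, so such peaks are not independent of each other.

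The nearest protein-coding start was that of 1 of 31 listed genes of the T lineage and T cell receptor for 5 peaks (1.85%, 0.794 to 4.26), beside 2.27% of distal peaks (2.03 to 2.54), and 3 of the 5 were at Tcf7. Gm11579, 35.5 kb from the start of the costimulatory receptor gene Cd28, had 72 fragments (11.4) and a Runx core. In introns of Tcf7 itself, the antisense RNA A630014C17Rik had peaks of 64 (10.1) and 21 fragments (3.43), and the RNA Gm16953 on the same strand had 1 of 57 (9.04). Tcf7 is the gene targeted in the control cells, and whether these sites are in the deleted stretch was not analysed here. Gm15208, 220 kb from the T lineage factor gene Bcl11b, had 25 fragments (4.05). The nearest coding start was that of a listed gene for 0 peaks among 22 genes of the naïve state, 20 of effector and memory cells or 13 of other immune lineages annotated, beside 1.51%, 0.719% and 0.0681% of distal peaks.

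The DNA under the summits was intermediate in composition. GC content within 100 bp had a median of 53.2% (interquartile range 48.3 to 62.2), against 62.7% at protein-coding starts and 48.8% at distal peaks. A GC content of at least 55% was found in 117 peaks (43.3%, 37.6 to 49.3), a difference of -31.9 points from protein-coding starts (-37.8 to -25.9) and of 29.1 points from distal peaks (23.2 to 35.0). The ratio of observed to expected CpG had a median of 0.440, against 0.823 at protein-coding starts and 0.245 at distal peaks. Peak width had a median of 472 bp (299 to 648), against 508 bp at protein-coding starts and 418 bp at distal peaks.

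The Tcf/Lef core was about as frequent at noncoding starts as over all peaks, and more frequent than at protein-coding starts. The letters ATCAAAG, on either strand of the 100 bp to each side of the summit, were present in 26 of 270 peaks (9.63%, 6.66 to 13.7), beside 9.70% of all peaks. It was in 4.55% of peaks at protein-coding starts, a difference of 5.08 points (2.07 to 9.21), and in 12.9% of distal peaks, from which the difference, -3.28 points, had an interval that included 0 (-6.31 to 0.868). In windows of the same length placed 2 kb to each side of the same summits it was in 3.33%, a difference of 6.30 points (2.78 to 10.6), and at the 4625 noncoding starts with no peak within 1 kb it was in 2.49%. In peaks where it was present the core was a median of 18 bp from the summit, within 25 bp in 15 of 26. The 27 copies in these 26 peaks were followed by A in 10, G in 9, C in 5 and T in 3, and 10 were on the strand of the RNA. Without the processed_transcript genes the difference from protein-coding starts was 2.02 points and its interval included 0 (-1.10 to 7.48).

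Among the peaks at noncoding starts, stronger ones carried the core more often, and this was not particular to that class. At a fold enrichment of at least 8 the core was in 18.4% of them. The difference from protein-coding starts of the same minimum was 10.2 points (3.36 to 19.7). This leaves protein-coding starts of that minimum above the 4.55% found over all their peaks. The ranges that follow were computed for the noncoding start peaks only. The core was present in 6 of 149 peaks (4.03%, 1.86 to 8.51) with a fold enrichment under 6, in 7 of 65 (10.8%, 5.32 to 20.6) from 6 to 10, and in 13 of 56 (23.2%, 14.1 to 35.8) at 10 or more, and the lowest and the highest range had intervals that did not overlap. The 8 strongest of the carriers were Gm15340, 1810014B01Rik, Gm13293, Mir150, 9330104G04Rik, Gm10044, Neat1 and 4930555B11Rik, with fold enrichments from 27.4 down to 14.96. RefSeq lists Gm10044 as protein-coding and 1810014B01Rik as a transcribed pseudogene, and 4 of the 26 carriers were at genes that it lists as protein-coding. The core was 3 bp from the summit at Neat1, 6 bp at 1810014B01Rik, 10 bp at Mir150, 29 bp at 4930555B11Rik, 41 bp at Gm15340, 75 bp at Gm13293, 86 bp at Gm10044 and 97 bp at 9330104G04Rik. The related sequence AACAAAG was in 20 peaks (7.41%), close to its 6.30% in the windows 2 kb away and beside 6.69% of all peaks. It was in 3.71% of peaks at protein-coding starts, a difference of 3.70 points (1.10 to 7.47). In distal peaks its share was 8.47%, a difference of -1.07 points (-3.67 to 2.72).

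The shares of the other sequences also lay between those of the other classes, and over all peaks they were 14.8% for the Runx core, 6.54% for the ETS core and 17.1% for the GC box. The Runx core TGTGGTT, bound by the Runx factors that act with Tcf1 in T cells, was in 29 peaks (10.7%, 7.58 to 15.0), against 5.16% at protein-coding starts, a difference of 5.58 points (2.38 to 9.86) that was 2.14 points (-1.19 to 7.77) without the processed_transcript genes, and 20.6% at distal peaks, a difference of -9.85 points (-13.1 to -5.54). At antisense transcripts it was in 14 of 60 peaks (23.3%, 14.4 to 35.4), and at lincRNA transcripts in 13 of 116 (11.2%, 6.67 to 18.2). The ETS core CGGAAGT, of the family of Ets1, was in 12 peaks (4.44%, 2.56 to 7.61), beside 13.2% at protein-coding starts, a difference of -8.72 points (-10.7 to -5.48), and 2.62% of distal peaks, a difference of 1.83 points (-0.0787 to 5.0). It was in 0 of 60 peaks at antisense transcripts, and a count of 0 allows a share of up to 5%, taking 3 counts as the limit, with a Wilson upper bound of 6.02%. The GC box CCCGCCC, a site of Sp factors at promoters, was in 49 peaks (18.1%, 14.0 to 23.2), against 37.5% at protein-coding starts and 4.86% at distal peaks, and the differences were -19.3 points (-23.6 to -14.2) and 13.3 points (9.13 to 18.3). None of the 4 sequences was in 162 peaks, and the Tcf/Lef core stood with a Runx core in 2 peaks and with an ETS core in 1. In the 2 kb flanks the shares were 4.81% for the Runx core, 0.741% for the ETS core and 2.59% for the GC box. A match says only that these letters are in the window.

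**Figure D5:**
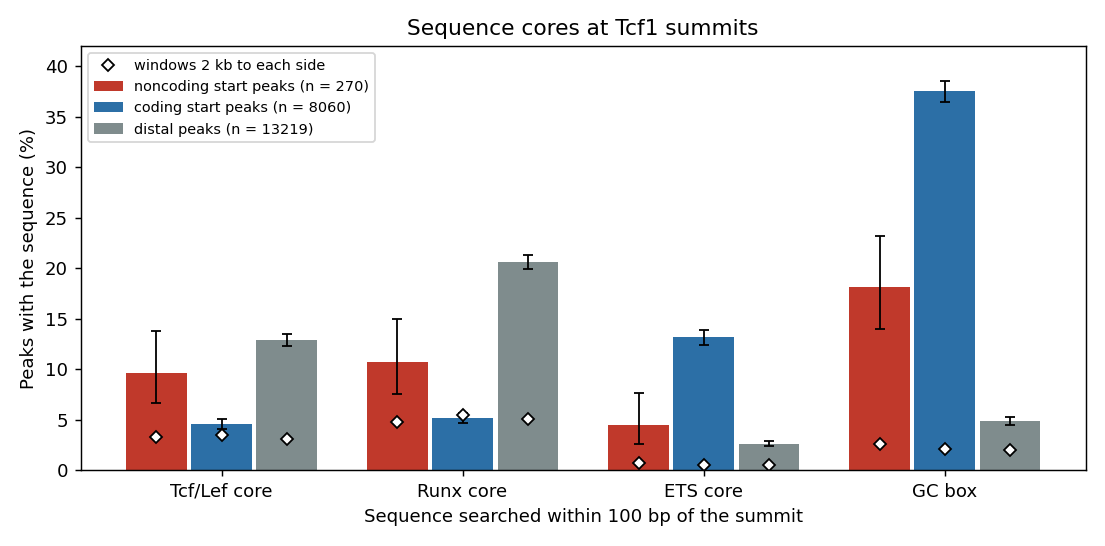
Bars give the percentage of peaks with each sequence within 100 bp of the summit on either strand, error bars are Wilson 95% intervals, and diamonds give the percentage in windows 2 kb to each side. The noncoding start peaks stand between the other 2 classes for all 4 sequences, for example at 9.63% for the Tcf/Lef core between 4.55% and 12.9%.

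The sequence content moved with GC content. Below 55% GC the Tcf/Lef core was in 17 of 153 peaks (11.1%), beside 10.9% of peaks at protein-coding starts of the same GC range, a difference of 0.228 points (-4.08 to 6.33). At 55% GC or more it was in 9 of 117 (7.69%), against 2.47% at protein-coding starts, a difference of 5.22 points (1.60 to 11.5). The Runx core was in 27 of 153 peaks (17.6%) below that limit and in 2 of 117 (1.71%) above it, and neither interval of the difference from protein-coding starts excluded 0 (-0.995 to 11.4 and -2.12 to 3.51). The ETS core stayed lower than at protein-coding starts in both ranges, with differences of -5.46 points (-7.502 to -1.39) and -7.999 points (-11.5 to -1.86).

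The 3 summits nearest inside the 1 kb limit to a noncoding start were 983 to 995 bp away, at Gm15729, Gm12796 and Gm11345, with fold enrichments of 5.45, 7.79 and 3.90, and the 3 nearest outside were 1008 to 1035 bp away, at Gm17422, Gm13185 and Gm16174, with 5.45, 5.14 and 9.04. On the limit to protein-coding starts, Gm10501, Gm4485 and Gm11725 were kept at 1015 to 1044 bp with 14.0, 3.51 and 3.43, and Gm16765, D030028A08Rik and 4930579G18Rik were dropped at 985 to 994 bp with 7.42, 5.76 and 4.83.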

How the data were processed

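Tcf1 ChIP-seq was analysed from 1 deposited peak list of a WT and a Tcf1-deficient library, described per the labels and the study's methods. The authors aligned reads to mm9 with Bowtie2 2.2.5 and called peaks with MACS2 2.1.1.20160309 from paired ends (p limit 1e-05), with 1 library per group and none pooled. The deposited pileup is a coverage signal, the WT fragments over the summit, unscaled. The deposited fold enrichment is the ratio of pileup plus 1 to the local control level plus 1, and the control level was computed back from it. The deposited −log10 p and −log10 q values were used only for the limits on p (1e-05) and q (0.05) in an alternative. Of 46428124 WT and 36118114 control fragments the authors kept 79.6% and 76.5%, and at the control floor of 5.42 a fold enrichment of 4 needs a pileup of 25. Depth thus limits what weak peaks can show.

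All deposited rows on chromosomes 1 to 19 were used. Starts of every transcript came from GENCODE vM1, and sequence from the matching genome NCBIM37, read with pysam 0.24.0. Classes were peaks within 1 kb of a protein-coding start, distal peaks (the rest, except 215 near starts of other gene types) and the noncoding set. Sequences of 7 letters were matched exactly. Shares have Wilson intervals, differences Newcombe intervals and pileups exact Poisson intervals (Python 3.11.15, scipy 1.17.1), and intervals of medians come from ranks. No p was computed. The functions were tested on simulated data. Gene names of RefSeq were matched by symbol or synonym, without coordinates.

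The members and gene lists were chosen with earlier results of these data known. Named genes were those with the highest fold enrichment (10), pileup (5) or control level (5), up to 8 carriers of the Tcf/Lef core and 8 miRNA genes by fold enrichment, all listed noncoding genes, peaks at the limits of the rule, genes with 3 or more peaks, and peaks nearest to listed coding genes. Peaks on chromosome 18 entered all counts and shares, and none of their sequence is printed. Gm2885 was picked after its values were seen. Alternatives varied the fold minimum, the start distance, the definition of a start, gene types, high-control peaks, the window and the neighbour distance.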

Additional observations from a re-analysis of the deposited data

Results flagged for a closer look

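Chromosome X was outside the rule. It held 13 peaks of the same kind, at noncoding starts and more than 1 kb from protein-coding starts, of which 7 had a fold enrichment of at least 4, beside 86.2% of all peaks on chromosomes 1 to 19, and 3 a control level over 50 fragments, beside 0.625% of those peaks. The strongest was at Gm15232, where 136 WT fragments stood over a control level of 5.42, for a fold enrichment of 21.3 (chrX:163539796-163540332). It drew attention as signal above the control library in data the report did not use.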

How the results depend on the processing

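Across 13 results, 131 values were recomputed under 11 alternatives planned and 2 added after the data were seen (without genes that RefSeq lists as protein-coding, and without miRNA genes). Of these, 104 stayed within the limits set for no change, 25 moved, 2 lost their interval above 0 and 0 turned direction. With a fold enrichment of at least 8 the number of peaks was 87, the median fold enrichment 11.997, the width 667 bp, the Tcf/Lef core share 18.4%, the share of genes with a peak 1.98% and the share with a neighbour 42.5%. With at least 4 and the p and q limits the medians were 6.39 and 503 bp, and the last 2 shares 5.21% and 56.5%. Without processed_transcript genes there were 137 peaks with a median GC content of 55.7%, a Tcf/Lef core share of 6.57%, a Runx core share of 7.30% and a neighbour share of 51.8%. The differences from protein-coding starts then fell to 2.02 points (-1.10 to 7.48) for the Tcf/Lef core and 2.14 points (-1.19 to 7.77) for the Runx core. With a start distance of 500 bp the GC content was 55.7%, the Runx core share 6.79% and the share of genes 4.95%, which was 7.99% with 2 kb and 7.95% without miRNA genes. Windows of 50 bp gave an ETS core share of 2.22% and a Runx core share of 6.67%, and 200 bp an ETS core share of 8.89%. Neighbour distances of 5 kb and 50 kb gave 48.9% and 91.5%. Counts fall with a stricter minimum or distance by construction, and for the shares and medians the cause was not tested. No paired analysis was possible because each group had 1 library. Depth limits weak peaks: at 24 fragments, as at Mir155, the Poisson interval was 15.4 to 35.7.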
